A study of Mus musculus with 2148 samples.

Results

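The genes described here are Fezf2, Chd4 and 5 tissue-restricted antigens, Ttr, Apoc3, Fabp9, Resp18 and Crp, which were taken as given names and found by their Ensembl identifiers, 7 of the 48437 genes in the count table. They were measured by RamDA-seq, a full-length total RNA method, in single thymic epithelial cells of C57BL/6 mice that were sorted into 96-well plates from CD45-negative, EpCAM-positive cells. Medullary cells (mTECs) were Ly51-negative with high (mTEChi) or low (mTEClo) MHC class II, and cortical cells (cTECs) were Ly51-positive. The 8 groups were adult wild-type (WT) mTEChi (620 cells on 9 plates), mTEClo (66 to 77 cells on each of 5 plates) and cTECs (77 cells on 1 plate), adult Aire-deficient (Aire-KO) mTEChi (81 to 87 cells on each of 4 plates) and mTEClo (73 and 81 cells on 2 plates), and WT mTEChi (32 to 40 cells a plate), mTEClo (11 to 30) and cTECs (22 to 37) of neonates aged 1 day, which shared 5 plates. Adult mice were 4 to 8 weeks old. Cells of 1 group that shared age and sex were summed into 1 mouse pool, because cells of 1 animal are not replicates, which gave 13 pools: 4 for adult WT mTEChi (4-week males, 5-week males, 6-week males and 4-week females, in that order), 3 for adult WT mTEClo (males of 8, 5 and 4 weeks) and 1 for each other group. The labels do not say how many mice each pool held, so the p-values measure only the spread between these pools, and each Aire-KO and neonate group rests on 1 pool. The Aire-KO mTEC pools came from 5-week males. No plate held cells of more than 1 adult group, and none held both adult and neonate cells. Plate therefore cannot be told apart from cell sort, genotype or age in any comparison made here.

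Fezf2 is a zinc-finger transcription factor best known from forebrain neurons. In mTECs it directs the expression of self-antigens, largely apart from the genes that depend on Aire, and so takes part in the deletion of self-reactive T cells. Chd4 is the nucleosome-remodelling ATPase of the NuRD complex, which also holds histone deacetylases, and it is known as a partner of Fezf2 in mTECs. The 5 antigens are transcribed strongly in other tissues: Ttr encodes transthyretin, a carrier of thyroxine and retinol from liver and choroid plexus, Apoc3 an inhibitor of lipoprotein lipase from liver and intestine, Fabp9 a lipid-binding protein of the testis, Resp18 a secretory-granule protein of neuroendocrine cells, and Crp a pentraxin of the acute-phase response in liver.

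In mm10 coordinates (GRCm38, GENCODE M21), Fezf2 lies on the minus strand of chromosome 14 from 12342094 to 12348189, with 3047 exonic bases. Chd4 lies on the plus strand of chromosome 6 from 125095981 to 125130591, with 8019 exonic bases. Apoc3 lies on the minus strand of chromosome 9 from 46232933 to 46235636, between Apoa1 and Apoa4. Fabp9 lies on the minus strand of chromosome 3 from 10193621 to 10197283, between Pmp2 and Fabp4 in a cluster of fatty-acid-binding protein genes. Resp18 lies on the minus strand of chromosome 1 from 75272199 to 75278415, and Crp lies on the plus strand of the same chromosome from 172698055 to 172833031, with 3444 exonic bases. Reads were counted over exons without regard to strand. Fabp9 shares 53% of its exonic bases with Gm37389, a read-through model of the same strand, so its counts are the least certain of the 7. The other exonic overlaps were small, 40 bases of Resp18 with the antisense model Gm28902 and 63 bases of Chd4 with Mir7045.

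The start regions of Fezf2 and of Crp, an antigen found more often in the mTEClo cells with more Fezf2, are shown to place both readouts in the genome. Each runs from 250 bases before to 50 bases after an annotated start (RefSeq, GRCm38.p6, 5′ to 3′ on the gene's strand), and capitals mark CG dinucleotides, the sites of DNA methylation. The first is chr14:12345816-12346115 on the minus strand and lies inside the annotated span of Fezf2. The second is chr1:172697806-172698105 on the plus strand.
Fezf2: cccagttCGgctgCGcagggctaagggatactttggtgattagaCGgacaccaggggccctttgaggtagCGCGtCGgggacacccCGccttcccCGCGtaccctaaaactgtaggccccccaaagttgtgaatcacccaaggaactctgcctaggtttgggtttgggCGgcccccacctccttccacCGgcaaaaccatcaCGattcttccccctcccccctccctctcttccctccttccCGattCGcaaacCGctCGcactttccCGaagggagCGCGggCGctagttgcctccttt
Crp: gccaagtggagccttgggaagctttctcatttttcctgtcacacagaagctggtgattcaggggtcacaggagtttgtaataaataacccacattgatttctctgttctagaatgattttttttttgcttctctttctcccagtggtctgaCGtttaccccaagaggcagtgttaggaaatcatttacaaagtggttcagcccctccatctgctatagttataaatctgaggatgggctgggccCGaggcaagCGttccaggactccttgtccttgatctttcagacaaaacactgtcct
The Fezf2 window held 20 CG dinucleotides, more than 73.5% of the 32851 promoter windows of the same length, whose median was 7. The Crp window held 3. The letters TATAAA, searched on both strands, occurred in the Crp window and in 13.6% of all windows, and not in the Fezf2 window. No start region is shown for Ttr, Apoc3 and Fabp9.

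The cells held 203010 to 1823784 reads on genes, with a median of 692880. The second adult WT mTEChi pool held only 12 cells and 7990398 reads, against 48515103 to 351545799 reads in the other 3. Of the 3 adult WT mTEClo pools, the second and the third were rich in tuft cell transcripts: 93.2% and 59.1% of their cells held 3 or more of the 5 tuft markers Pou2f3, Trpm5, Avil, Dclk1 and Il25 at 5 or more reads, against 11.5% in the first, and the summed level of these markers was 4228 and 4665 against 527.5 counts per 1e6 reads (CPM). The thymic epithelial markers Epcam, Foxn1, Krt8 and Krt5 were above 1 CPM in every group. The 5 cTEC markers summed to 5528 and 5748 CPM in the adult and neonate cTEC pools and to 237.1 to 849.6 CPM in adult WT mTEClo, but to 2293 CPM in neonate mTEClo. Levels are given below as CPM of a pool's summed reads, and shares as the percentage of cells with 1 or more reads.

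Fezf2 was highest in mTEChi, several-fold lower in mTEClo and lowest in cTECs. In adult WT mTEChi the 4 pools held 386.4, 637.8, 340.6 and 423.4 CPM (mean 447.03 ± 131.6, SD, n = 4), and in adult WT mTEClo the 3 pools held 139.1, 100.9 and 69.4 CPM (mean 103.1 ± 34.9, SD, n = 3). Every mTEChi pool was above every mTEClo pool, as was the case for 16.1% of the 39971 genes tested. The fitted difference was 1.89 on the log2 scale (SE 0.34), a 3.71-fold higher level in mTEChi, and passed the test (edgeR quasi-likelihood, Benjamini-Hochberg adjusted p = 0.0132). Without the second mTEClo pool, which is the richest in tuft-marker cells, it was 1.83 with an adjusted p of 0.0542, and it passed in the other 17 alternatives, with a fitted value of 1.42 to 2.43. In cTECs the level was 20.8 CPM in the adult pool and 14.0 CPM in the neonate pool.

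The order of the groups by Fezf2 level was adult WT mTEChi, adult Aire-KO mTEChi (362.3 CPM), neonate mTEChi (353.3 CPM), adult WT mTEClo, adult Aire-KO mTEClo (89.9 CPM), neonate mTEClo (37.1 CPM), adult cTEC and neonate cTEC. The Aire-KO and neonate mTEChi pools lay within the range of the 4 adult WT mTEChi pools, and the Aire-KO mTEClo pool within the range of the 3 adult WT mTEClo pools. The neonate mTEClo pool lay below all 3. Counted per cell, Fezf2 was detected in nearly all mTEChi cells: 99.7% of adult WT cells (all but 2 of 620), 100% of Aire-KO cells (95% exact binomial interval 98.9 to 100%, counting error only) and 98.8% of neonate cells. In mTEClo the share was 99.5, 87.8 and 63.6% in the 3 adult WT pools, 70.1% (62.2 to 77.2%) in Aire-KO and 63.7% (54.6 to 72.2%) in neonates. In cTECs it was 33.8% in adults and 64.7% in neonates, with a median of 7.47 and 2.70 CPM in the cells with a read, against 332.5 CPM in adult WT mTEChi cells. Thinned to 200000 reads per cell, the shares in cTECs were 33.1% in neonates and 24.7% in adults.

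Chd4 was expressed in practically every cell of every group, and it ran the other way from Fezf2 between the 2 mTEC sorts. In adult WT mTEChi the pools held 270.1, 232.03, 310.3 and 169.8 CPM (mean 245.6 ± 59.8, SD, n = 4), and in adult WT mTEClo 385.6, 457.8 and 404.3 CPM (mean 415.9 ± 37.5, SD, n = 3). All 4 mTEChi pools were below all 3 mTEClo pools, which held for 9.85% of the genes tested. The difference of -0.96 on the log2 scale (SE 0.20) had an adjusted p of 0.0231 in edgeR but a fold of 1.94, under the 2-fold minimum, and so was not counted as called. With the first mTEChi pool reduced to 1 of its plates, an alternative chosen after seeing the data, it was -0.74 with an adjusted p of 0.105. Without cells that held tuft markers it was -0.62 with an adjusted p of 0.179. The share of cells with a read was 99.1 to 100% in all 8 groups. Per kilobase of exon, a scale on which genes can be compared, Fezf2 stood at 146.7 CPM per kb and Chd4 at 30.6 in adult WT mTEChi, whereas in adult WT mTEClo Fezf2 stood at 33.8 and Chd4 at 51.9.

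**Figure D1:**
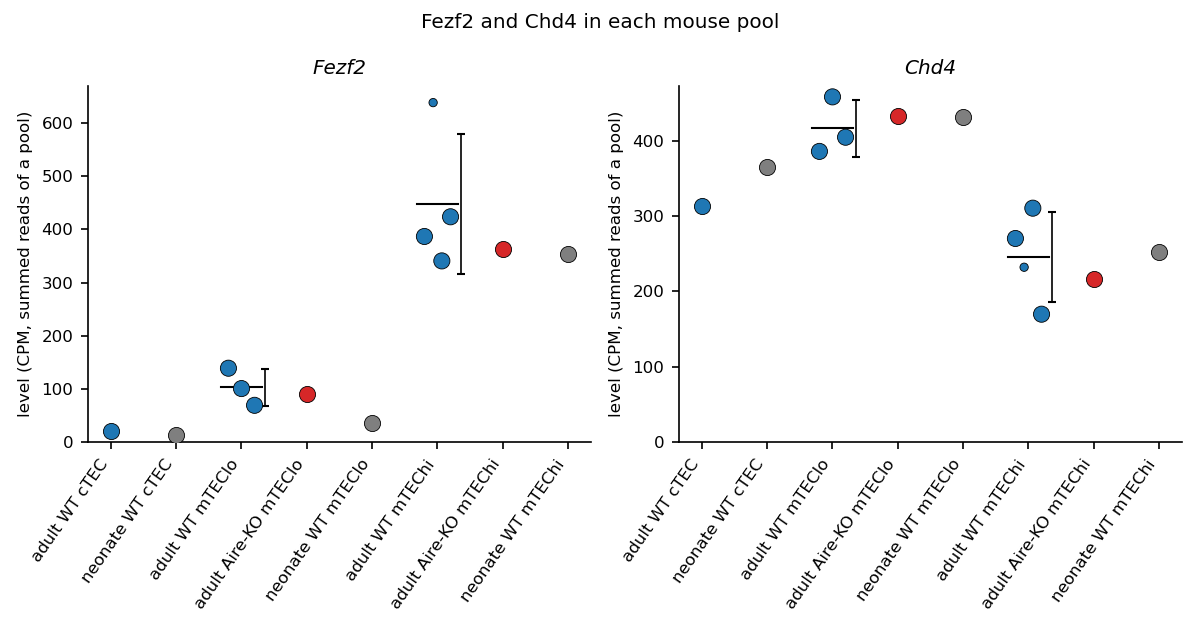
Level of Fezf2 (left) and Chd4 (right) in CPM (vertical axis, from 0) in each of the 13 mouse pools, by group; the small point is the 12-cell pool, the line is the mean over pools and the bar beside it 1 SD. The Fezf2 points of the 3 mTEChi groups lie between 340.6 and 637.8 CPM and all others at or below 139.1 CPM, and the Chd4 points of the 3 mTEChi groups lie between 169.8 and 310.3 CPM.

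The other NuRD subunits gave a background for Chd4. Of 14 genes listed (Chd3, Chd5, Mta1, Mta2, Mta3, Hdac1, Hdac2, Mbd2, Mbd3, Rbbp4, Rbbp7, Gatad2a, Gatad2b and Cdk2ap1), 2 were called lower and 0 higher in adult WT mTEChi than in mTEClo, where 4.13% of all genes were called lower and 7.54% higher. Mbd2, which binds methylated CG sites, fell by 1.47 on the log2 scale (SE 0.26, adjusted p = 0.0125), from 48.6 to 74.1 CPM in the mTEClo pools to 21.2 to 31.7 CPM in the mTEChi pools. Mta1, a scaffold subunit, fell by 1.14 (SE 0.31, adjusted p = 0.0462), from 58.9 to 101.2 CPM to 29.9 to 54.7 CPM. Both calls depended on the setting. Neither was made with the ages and sexes of the pools as a block, without tuft-marker cells or without cells that held non-epithelial markers, so that Mbd2 lost its call in 3 of the 18 alternatives. Mta1 lost its call in 13, also without a filter, with limma, with DESeq2 size factors, with the first mTEChi pool from plate 1 alone and in 6 of the 7 fits that left out a pool (each but that without the 12-cell pool). Mta2 had a difference of -0.84 with an adjusted p of 0.0165, again under 2-fold. Gatad2a, Gatad2b and Rbbp4 had differences of -0.56, -0.63 and -0.41. Their unadjusted p-values were 0.00846, 0.00848 and 0.0403 and their adjusted p-values above 0.05. Of the 14, 8 had a negative and 6 a positive difference, the highest 0.93. All mTEChi pools were above all mTEClo pools for 2, Chd3 and Hdac1, as for 16.1% of all genes. They were below for 5, Mta1, Mbd2, Gatad2a, Gatad2b and Mta2, as for 9.85%. The median difference of the 14 was -0.24, where the median of all genes was 0.30. The median of all genes depended on the setting: it was lower with limma and with thinned cells and higher without a filter. Whether it is a shift shared by all genes was not tested. Between Aire-KO and WT no NuRD gene was called, and the values ran from -0.55 to 0.53 in mTEChi and from -0.71 to 0.81 in mTEClo.

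The 5 antigens fell into 3 patterns between mTEChi and mTEClo of adult WT mice. Fabp9 and Apoc3 were higher in mTEChi, Resp18 and Ttr showed no difference that passed the test, and Crp had the larger level in mTEClo without passing. Fabp9 held 10.8, 6.13, 13.1 and 6.90 CPM in the mTEChi pools and 0.498, 0.150 and 0.149 CPM in the mTEClo pools. The groups did not overlap, and the difference was 4.83 on the log2 scale (SE 0.77, adjusted p = 0.00941), which kept an adjusted p of 0.0433 or less in all 18 alternatives. Apoc3 held 24.9, 1.88, 14.6 and 14.2 CPM in the mTEChi pools, of which the low value was that of the 12-cell pool, and 1.10, 0.634 and 0.234 CPM in the mTEClo pools. Its groups did not overlap either, and the difference was 4.14 (SE 0.97, adjusted p = 0.0306). That call was less firm: it was lost in 9 of the 18 alternatives, in 5 of the 7 that left out a pool (mTEChi pool 1, 3 or 4 and mTEClo pool 2 or 3, adjusted p 0.00913 to 0.103 over the 7), with equal weight per cell in limma, with the block, and without cells that held tuft or non-epithelial markers, while the fitted difference stayed between 2.80 and 4.99.

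Per kilobase of exon, Resp18 had the highest level of the 5 antigens in adult WT mTEChi (49.5 ± 9.26 CPM per kb, SD, n = 4), and its mTEClo pools differed widely. Its mTEChi pools held 52.7, 39.1, 62.3 and 50.4 CPM, and its mTEClo pools 1.81, 45.4 and 57.5 CPM. The low mTEClo value belonged to the pool of 8-week males with few tuft-marker cells, and the other 2 reached the mTEChi range, so that the difference was 0.43 (SE 0.81, adjusted p = 0.739). Ttr spread widely within both sorts, from 0.125 to 15.1 CPM in mTEChi and from 0.302 to 14.7 CPM in mTEClo, and the difference was -0.07 (SE 1.52, adjusted p = 0.980). Crp held 18.1, 23.7, 11.1 and 11.0 CPM in mTEChi and 52.3, 27.1 and 22.5 CPM in mTEClo. The lowest mTEClo pool was below the highest mTEChi pool, and the difference was -1.33 (SE 0.44, adjusted p = 0.0782), which passed with DESeq2, with thinned cells and with plates as units, and was -0.39 with the block. By pool, Crp was found in 70.0, 29.7 and 18.2% of mTEClo cells, the pools with many tuft-marker cells being the lower ones. In all, 3 of the 7 members were called higher in mTEChi, where 7.54% of all genes were, and 0 lower, while 5 had an unadjusted p under 0.05, where 34.6% of all genes did. In mTEChi 66.7 to 82.5% of the cells of each pool held 2 or more of 10 non-epithelial markers (of thymocytes, myeloid, endothelial and red cells and fibroblasts) at 5 or more reads, against 5.53 to 36.4% in the adult WT mTEClo pools. Without these cells Fezf2 and Fabp9 were still called (adjusted p = 0.0438 and 0.0234).

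Shares of cells were set beside these levels, as a description with no test, and they did not follow the levels for every antigen. A read of Fabp9 was found in 34.4% of adult WT mTEChi cells and 11.2% of mTEClo cells, and 5 or more reads in 16.0 and 1.12%. For Apoc3 the shares were 40.2 and 10.4% at 1 read and 19.0 and 3.36% at 5 reads. Resp18 was found in 68.7 and 28.6% (54.03 and 19.6% with cells thinned to 200000 reads). Its share was 64.6 to 85.4% over the 4 mTEChi pools and 20.7 to 50.0% over the 3 mTEClo pools. How many of all genes have shares this far apart was not counted. Ttr was found in 19.5 and 9.80% (11.1 and 5.88% thinned), with overlapping pools (3.66 to 23.6% and 6.06 to 21.6%). Crp was found in 36.1 and 52.1%. Its pools overlapped as well, at 24.4 to 41.7% in mTEChi and 70.0, 29.7 and 18.2% in mTEClo. In adult cTECs the 5 shares ran from 1.30% for Ttr and Fabp9 to 13.0% for Crp (median depth 862537 reads per cell), and in neonate cTECs from 5.04% for Fabp9 to 23.02% for Crp (695844 reads), against which the shares in mTECs are to be read.

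**Figure D2:**
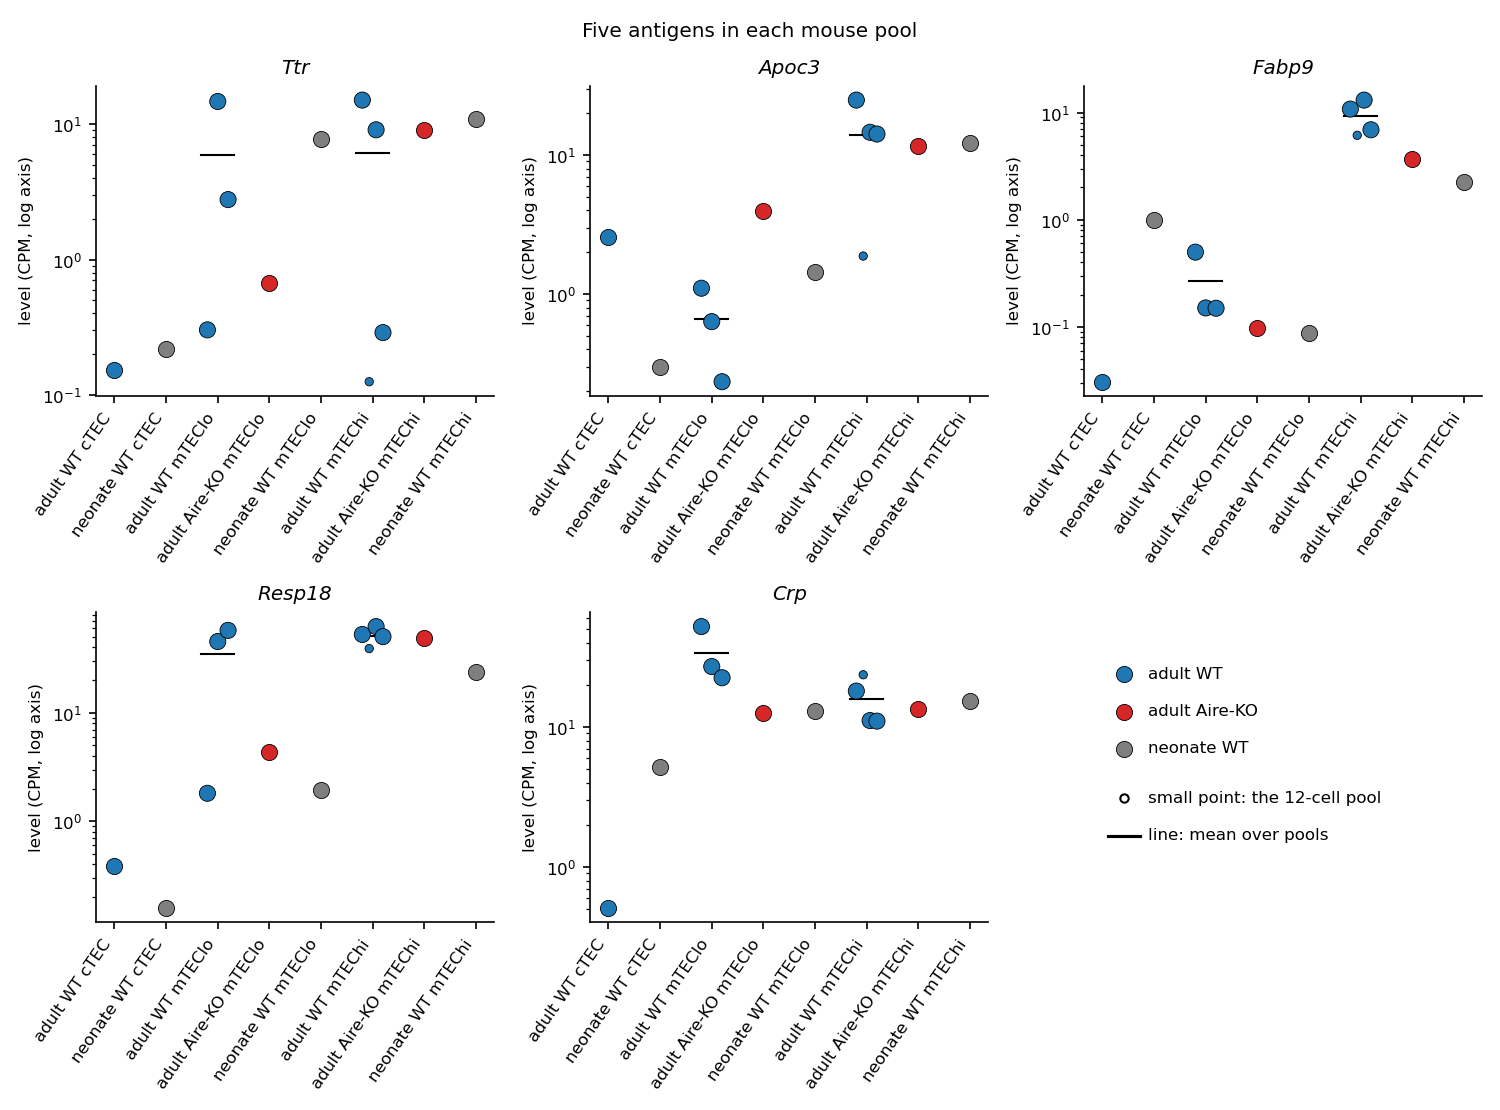
Level of the 5 antigens in CPM (vertical axes, logarithmic) in each of the 13 mouse pools, by group; the small point is the 12-cell pool and lines are means over pools. Fabp9 and Apoc3 separate adult WT mTEChi from mTEClo, whereas the Resp18 and Ttr points of adult WT mTEClo spread from 1.81 to 57.5 CPM and from 0.302 to 14.7 CPM.

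The reads of each antigen came from few cells. In adult WT mTEChi, 50% of the Ttr reads lay in 6 of 620 cells, 50% of the Fabp9 reads in 16, of the Apoc3 reads in 17, of the Crp reads in 24 and of the Resp18 reads in 34. For Fezf2 and Chd4 the same share of reads took 21.8 and 16.8% of the cells. In smaller groups single cells carried a level: 99.7% of the Apoc3 reads of Aire-KO mTEClo lay in 1 cell, 90.97% of the Resp18 reads of neonate mTEClo in 1, and 64.2% of the Ttr reads of neonate mTEClo in 1. Where an antigen had a read at all, the median level was 3.68 CPM for Ttr, 4.91 for Fabp9, 5.75 for Apoc3, 14.5 for Resp18 and 14.9 for Crp in adult WT mTEChi, whereas the highest single cells held 918.9, 364.3, 856.04, 1120.2 and 378.7 CPM, in the same order of genes.

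Aire itself was the check of the Aire-KO labels. It held 1109.7, 1844.6, 1125.1 and 1789.7 CPM in the adult WT mTEChi pools and 26.1 CPM in the Aire-KO pool, and 37.1, 39.5 and 26.1 CPM in the adult WT mTEClo pools and 0.153 CPM in the Aire-KO pool. Every Aire-KO mTEChi plate (17.0 to 36.9 CPM) was below every WT plate (724.6 to 1844.6 CPM). The fitted differences were -5.69 (SE 0.57) in mTEChi and -7.79 (SE 0.66) in mTEClo. With 1 Aire-KO pool a sort even these had edgeR adjusted p-values of 0.239 and 0.0632, and 0 of the 39971 genes were called in either comparison (0.00%), where 4.37 and 3.55% had an unadjusted p under 0.05. DESeq2 called 1.93 and 0.683% of the genes, Aire among them, and the edgeR fit with the ages and sexes of the pools as a block 0.141 and 0.306%, also with Aire. No member was called in either comparison under any of the 18 alternatives. A member that missed the threshold in this design is not shown to be unchanged.

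In Aire-KO mTEChi, neither Fezf2 nor Chd4 left the span of the WT values. Fezf2 stood at 362.3 CPM against 340.6 to 637.8 CPM in the WT pools, a difference of -0.18 (SE 0.47), and Chd4 at 216.7 CPM against 169.8 to 310.3 CPM, a difference of -0.05 (SE 0.30). In mTEClo the differences were -0.21 (SE 0.49) for Fezf2 and 0.08 (SE 0.31) for Chd4. An interval of 2 SE on either side allowed -1.12 to 0.77 for Fezf2 and -0.66 to 0.55 for Chd4 in mTEChi.

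Of the antigens, Fabp9 alone lay below every WT pool in Aire-KO mTEChi, at 3.72 CPM against 6.13 to 13.1 CPM, as did 17.5% of all genes. Its difference was -1.18 (SE 0.99, adjusted p = 0.952), or -0.65 with the first WT pool reduced to plate 1, which was chosen after seeing the data, and -3.46 without cells that held non-epithelial markers, neither past the threshold. Apoc3 stood at 11.7 CPM (difference -0.13, SE 1.20), Resp18 at 48.8 CPM (0.06, SE 1.17), Crp at 13.4 CPM (-0.13, SE 0.66) and Ttr at 9.10 CPM (0.69, SE 2.13), each inside the span of the WT values. In Aire-KO mTEClo, Resp18 held 4.38 CPM (difference -2.90, SE 1.47, unadjusted p = 0.0814), Crp 12.7 CPM (-1.45, SE 0.74, p = 0.0834), Fabp9 0.0981 CPM (-1.50, SE 1.08) and Ttr 0.676 CPM (-3.04, SE 2.82). Apoc3 held 3.98 CPM there (2.55, SE 1.13, p = 0.0516), and 99.7% of its reads lay in 1 cell. Crp and Fabp9 lay below all 3 WT mTEClo pools, as did 13.6% of all genes, and Apoc3 above them, as did 25.9%. The difference between the Aire-KO effects in the 2 sorts was tested as an interaction and called for 0 members, as for 0.00% of all genes, with 3.44% of genes and 0 members at an unadjusted p under 0.05.

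A list of antigens in common use as Aire-dependent gave larger values for all but Csn2, none of which passed. Of 7 listed, 6 were found in the table: Ins2, Csn2, Mup1, Fabp2, Tff3 and S100a8. Of these, 5 had a negative difference in Aire-KO mTEChi, none called. The median of the 6 was -3.56, beside -0.13 for the 5 Fezf2-linked antigens and -0.16 for all genes. The median was -3.03 when genes without a read in the Aire-KO pool were set to the limit of 3 reads there. Ins2, the insulin gene, held 24.4, 0, 8.23 and 6.53 CPM in the WT mTEChi pools, with a read in 150 of 620 cells, and had no read in the Aire-KO cells. In adult WT mTEClo, Ins2 was found in 100% of the cells of the third pool, at 136.7 CPM, against 4.15 and 2.70% of the cells of the other 2, at 0.124 and 0.0834 CPM, so that a read of Ins2 did not mark single cells there. Mup1, a major urinary protein, had a read in 2 WT cells and in no Aire-KO cell. S100a8 alone of the 6 lay below every WT mTEChi pool, as did 17.5% of all genes. It held 9.52 CPM in Aire-KO against 37.8 to 115.5 CPM, a difference of -2.72. Tff3 held 2.12 CPM against 0.125 to 22.8 CPM (-2.23), and Csn2 673.7 CPM against 637.8 to 843.3 CPM (0.0089). Fabp2, an intestinal fatty-acid-binding protein, held 5.31 CPM in WT (0 to 12.4 CPM over pools) and 0.232 CPM in Aire-KO, a difference of -4.40 (SE 2.46, adjusted p = 0.925).

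**Figure D3:**
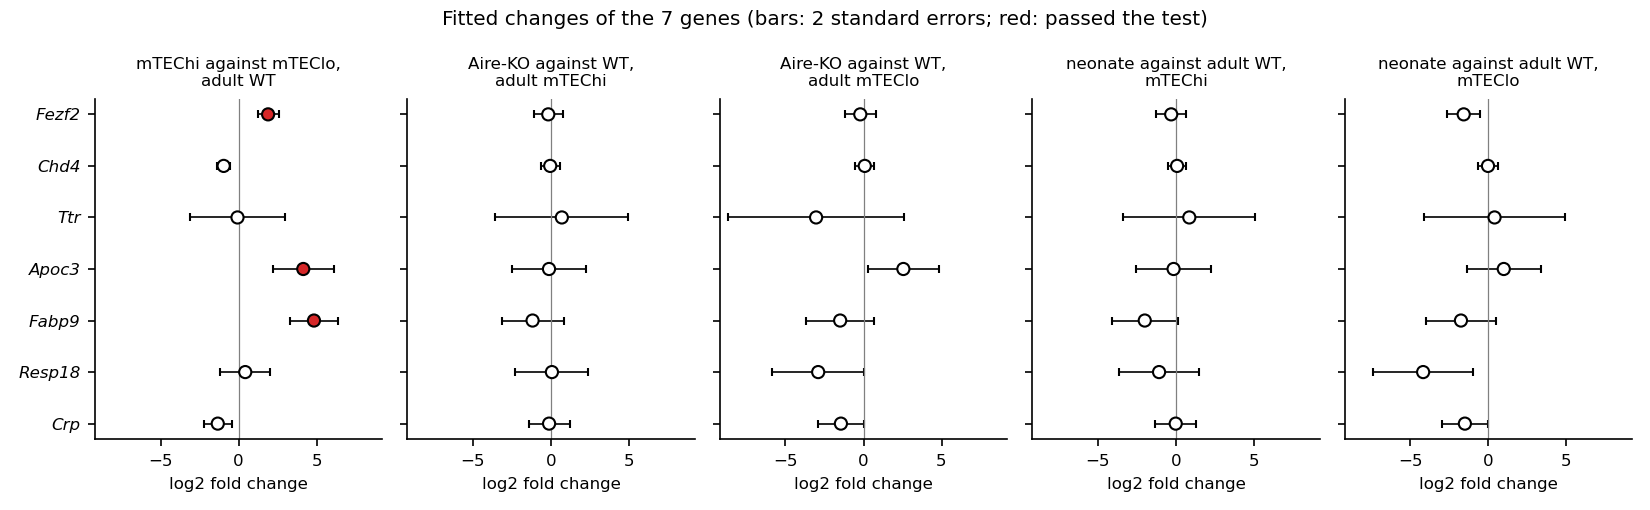
Fitted log2 fold change (horizontal axes) of the 7 genes in 5 comparisons of mouse pools, with bars of 2 standard errors; red points passed both thresholds (adjusted p below 0.05, 2-fold or more). Fezf2, Apoc3 and Fabp9 passed in adult WT mTEChi against mTEClo, at 1.89, 4.14 and 4.83, and no gene passed in the other 4 panels.

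The shares of cells with a read were also set side by side in Aire-KO and WT mTEChi. Apoc3 was found in 13.3% of Aire-KO cells (95% exact binomial interval 9.88 to 17.4%) and in 45.3, 16.7, 23.2 and 32.9% of the cells of the 4 WT pools. Fabp9 was found in 16.9% (13.0 to 21.3%) against 34.9, 58.3, 34.1 and 28.05%. Both lay below all WT pools, as did 23% of all genes, and still did after thinning to 200000 reads per cell (9.76 and 11.2%), as did 16.8%. Chd4 and Resp18 lay below all WT pools before thinning (99.1 and 56.5%) and not after it, and Fezf2 only after it (98.5%). Ttr (13.0% against 3.66 to 23.7%) and Crp (26.6% against 24.4 to 41.7%) lay within the WT range. At 5 or more reads, the shares of Aire-KO and WT cells were 7.69 and 19.03% for Apoc3 and 7.4 and 15.97% for Fabp9, while they were 44.4 and 45.3% for Resp18, 7.10 and 7.10% for Ttr and 23.1 and 23.5% for Crp. In Aire-KO mTEClo, Fabp9 (1.30%), Apoc3 (1.30%) and Resp18 (5.19%) lay below all 3 WT pools, as did 19.0% of all genes, and below them after thinning, as did 15.2%. The mean number of the 5 antigens detected per cell was 1.26 in Aire-KO and 1.99 in WT mTEChi (1.02 and 1.45 thinned), beside 1.30 in neonate mTEChi and 1.12 in adult WT mTEClo.

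These shares moved with the plate within the WT group. In the first WT pool, plate 1 gave Apoc3 in 14.7% of 75 cells and Fabp9 in 13.3%, whereas plates 37 to 41 gave 36.6 to 78.7% for Apoc3 and 30.99 to 51.6% for Fabp9. The 4 Aire-KO plates gave 4.76 to 23.5% for Apoc3 and 11.5 to 24.7% for Fabp9, so that WT plate 1 lay inside the Aire-KO range for both genes. At 5 or more reads the same plate gave 12% for Apoc3 and 6.67% for Fabp9, inside the Aire-KO ranges of 1.19 to 14.8% and 4.76 to 11.1%. Every Aire-KO cell came from plates that held no WT cell, so plate and genotype cannot be told apart.

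**Figure D4:**
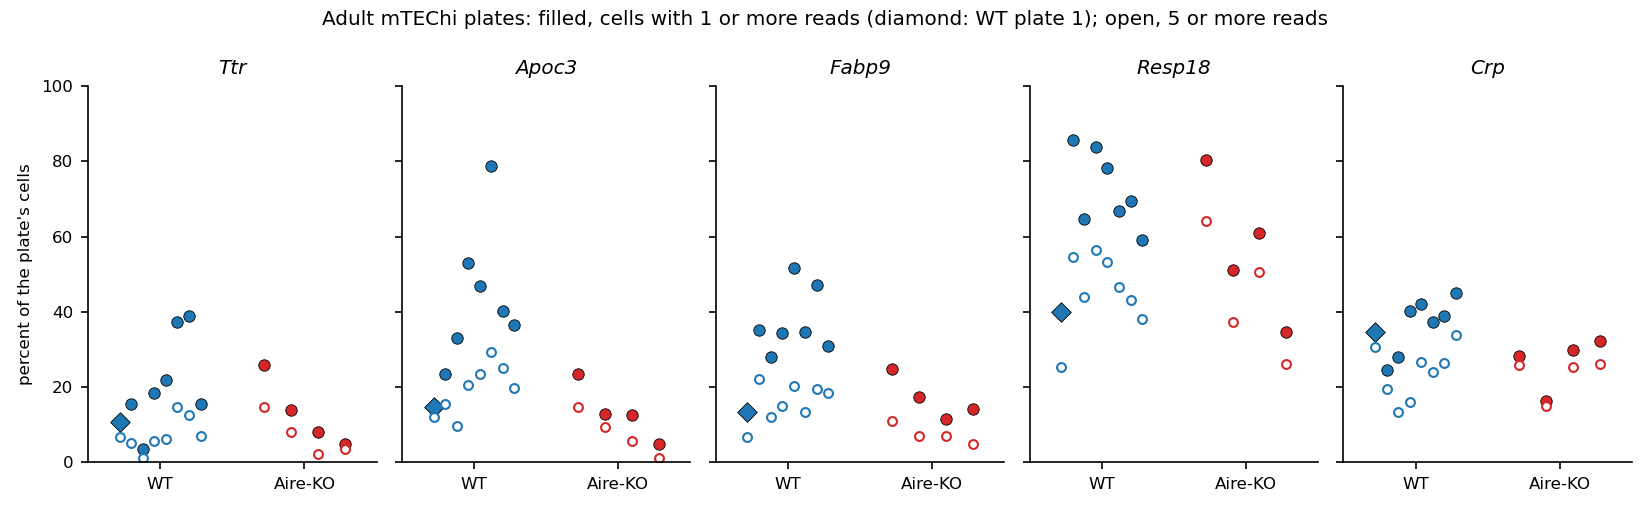
Percentage of cells with a read of each antigen (vertical axis) in the 8 adult WT and 4 Aire-KO mTEChi plates that held at least 50 cells; filled points count cells with 1 or more reads, open points cells with 5 or more, and the diamond is WT plate 1. For Apoc3 and Fabp9 the diamond, at 14.7 and 13.3%, lies among the Aire-KO plates and below the other WT plates.

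Neonate and adult WT mTECs were compared in the same fit, and no member passed in either sort, as for 0.00% of all genes. In mTEChi 0 members had an unadjusted p under 0.05, as had 2.01% of all genes. In mTEChi, Fezf2 differed by -0.31 (SE 0.48) and Chd4 by 0.07 (SE 0.30) in neonates. Fabp9 held 2.25 CPM, below all adult pools, a difference of -2.0 (SE 1.06, unadjusted p = 0.0932), and Resp18 held 23.6 CPM, also below all adult pools (-1.08, SE 1.27), where 12.3% of all genes lay below. No member lay above all adult pools, as did 20.1%. In mTEClo, 2 members had an unadjusted p under 0.05, as had 9.93% of all genes. Fezf2 held 37.1 CPM against 69.4 to 139.1 CPM, a difference of -1.58 (SE 0.53, p = 0.0168, adjusted p = 0.380), and Resp18 held 1.94 CPM, 90.97% of it from 1 cell, a difference of -4.18 (SE 1.60, p = 0.0294, adjusted p = 0.448). Resp18 passed with DESeq2, with plates as units and without the first adult mTEClo pool, and Fezf2 and Crp passed with plates as units. Fezf2, Crp and Fabp9 lay below all adult mTEClo pools, as did 19.1% of all genes, and Apoc3 (1.44 against 0.234 to 1.10 CPM) lay above them, as did 34.0%. Beside these values, the neonate mTEClo pool held 2293 CPM of summed cTEC markers, above the 237.1 to 849.6 CPM of the adult mTEClo pools. The part of these cells in the lower Fezf2 level was not tested.

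The relation to Fezf2 was described per cell by ordering the cells of each pool by Fezf2 level and setting the highest 3rd against the lowest. In adult WT mTEChi the cells of the highest part held 726.9 CPM of Fezf2 and those of the lowest 86.1 CPM, so the range was wide, and the sequencing depths were similar (median 781784 and 738816 reads). Over all 4 pools no antigen was found more often in the Fezf2-high cells. The shares in the high and low parts were 15.5 and 24.8% for Ttr, 38.3 and 45.1% for Apoc3, 31.6 and 33.5% for Fabp9, 69.4 and 70.9% for Resp18, and 36.4 and 36.4% for Crp, and Chd4 was found in 99.5% of both. The differences did not have 1 sign over the pools: for Apoc3 they were -10.1, -50.0, 3.70 and 7.41 percentage points, the second from 4 cells a part. The values rested on the first pool. Without it the difference was -1.72 points for Ttr in place of -9.22, 1.72 for Apoc3 in place of -6.80, 3.45 for Fabp9 in place of -1.94 and 5.17 for Resp18 in place of -1.46, and -3.45 for Crp in place of 0. For Apoc3 the difference over all pools was larger with thinned cells (-15.05 points) and at 5 or more reads (-13.6 points). Pearson's r with Fezf2 over the 620 cells, on log2(CPM + 1) centred per plate, lay between -0.14 (Ttr) and 0.04 (Chd4). The mean level of Ttr was 2.61 CPM in the high and 22.9 CPM in the low part, and that of Apoc3 14.5 and 39.2 CPM. Aire ran with Fezf2, at 1491.7 and 826.2 CPM and with r = 0.36. In Aire-KO and neonate mTEChi, Ttr was again in fewer of the Fezf2-high cells (8.93 against 20.5%, and 12.3 against 21.1%), and Crp differed by -5.36 and -7.02 points. Apoc3 differed by -8.04 and -1.75 points in these groups and Resp18 by 0 and -8.77 points. Fabp9 was in more of the Fezf2-high cells of neonate mTEChi (22.8 against 10.5%).

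In mTEClo, Crp went with Fezf2 in every pool. In adult WT mTEClo, Crp was found in 66.9% of the Fezf2-high and 35.6% of the Fezf2-low cells, with differences of 30.6, 37.5 and 27.3 points in the 3 pools, and its mean level was 68.1 against 14.2 CPM. In Aire-KO mTEClo the shares were 52.9 and 7.84%, and in neonate mTEClo 39.0 and 14.6%. Only 20.2% of the neonate mTEClo cells held 5 or more Fezf2 reads, so their Fezf2-high part included cells with fewer. Their Fezf2-low cells all lacked a Fezf2 read, as did some cells outside that part. All neonate mTEClo values by Fezf2 level, for Crp and for the other genes below, carry this limit. Pearson's r over cells was 0.35, 0.37 and 0.20 in the 3 groups. In settings chosen after seeing the data, the difference in adult WT mTEClo was 36.4 points with thinned cells, 30.5 points at 5 or more reads and 32.4 points without tuft-marker cells. In Aire-KO mTEClo it stayed between 37.3 and 39.2 points in these settings and in neonates between 17.1 and 20.6 points. Resp18 differed by 0, 12.5 and 36.4 points in the 3 adult WT mTEClo pools, and by 2.70 points once tuft-marker cells were left out. The other antigens differed by at most 5.08 points in the 3 mTEClo groups. Crp was not alone in this, since some of the Aire-dependent antigens listed above were also in more of the Fezf2-high cells. Csn2, a milk casein, differed by 11.02 points in adult WT, 7.84 in Aire-KO and 17.1 in neonate mTEClo. It was the listed gene that did not fall in Aire-KO mTEChi (log2 difference 0.0089). S100a8, a calcium-binding protein of neutrophils, differed by 8.47, -1.96 and 14.6 points, and Tff3, a trefoil peptide of mucous epithelia, by 0.847, 7.84 and 14.6 points. Aire stood at 241.8 CPM in the Fezf2-high and 11.3 CPM in the Fezf2-low cells of neonate mTEClo (r = 0.56) and at 51.3 and 29.6 CPM in adult WT mTEClo (r = 0.06). In neonate cTECs Crp was in 32.6% of the Fezf2-high and 13.04% of the Fezf2-low cells, and in adult cTECs in 8 and 16%. Apoc3 was in 24 and 0% of these parts in adult cTECs and in 13.04 and 4.35% in neonate cTECs. The other antigens differed by at most 4 points in both cTEC groups. The Fezf2-low cTECs all lacked a Fezf2 read, and the adult parts held 25 cells each. No test was made over cells, which share plates and libraries.

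**Figure D5:**
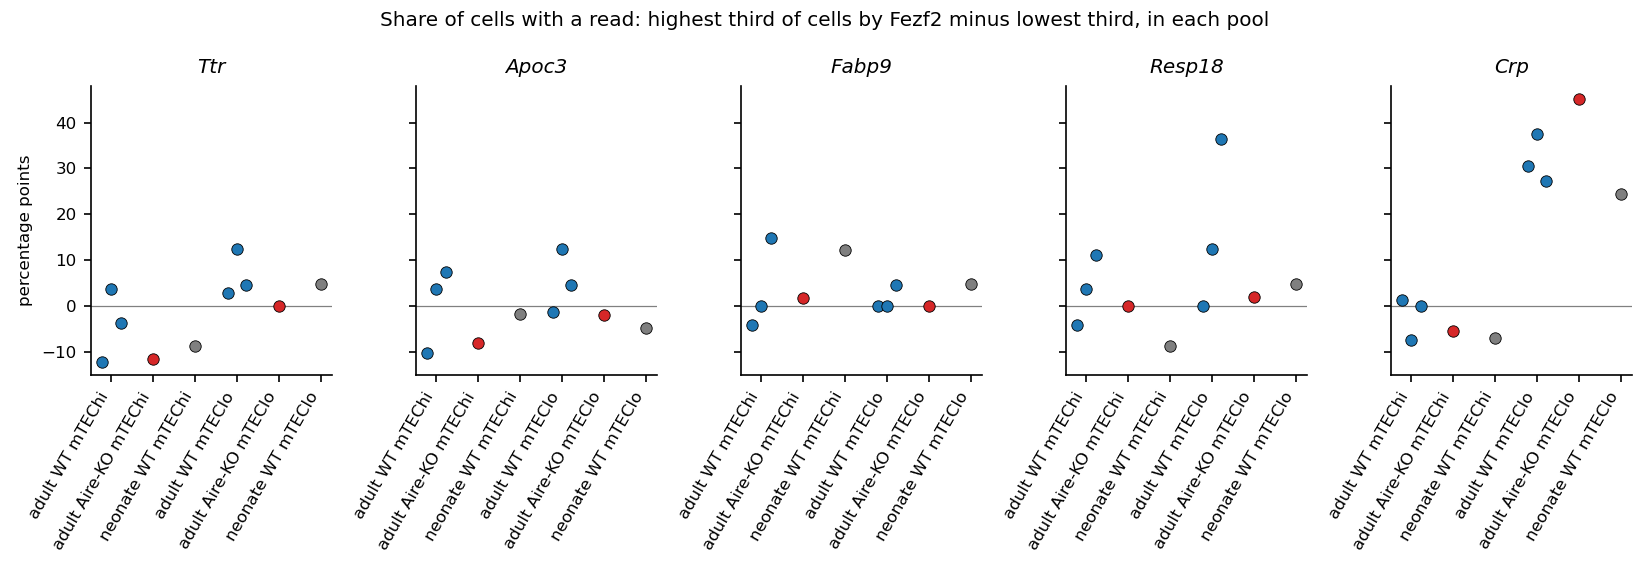
Share of cells with a read of each antigen in the third of cells with the most Fezf2 minus that in the third with the least, in percentage points (vertical axis), for each mTEC pool with at least 10 cells a part; colours mark adult WT (blue), Aire-KO (red) and neonate (grey). The Crp points of all 5 mTEClo pools lie between 24.4 and 45.1 points, whereas its mTEChi points lie between -7.41 and 1.35.

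Cells with an antigen differed in what else they held. Of the adult WT mTEChi cells with 5 or more Apoc3 reads (19.03% of the group), 69.5% held 3 or more of the enterocyte and liver markers Hnf4a, Hnf4g, Vil1, Apoa4 and Apoa1, of which the last 2 are neighbours of Apoc3, against 25.5% of all 620 cells. For Ttr it was 63.6% of 44 cells. For Fabp9, Resp18 and Crp it was 30.3, 28.1 and 26.03%. In Aire-KO mTEChi, 10.7% of all cells were in this class, against 84.6% of the 26 Apoc3 cells, 45.8% of the 24 Ttr cells, 44% of the 25 Fabp9 cells, 13.3% of the Resp18 cells and 8.97% of the Crp cells. Of the 39 adult WT mTEClo cells with 5 or more Resp18 reads, 25 (64.1%) held 3 or more of the 6 neuroendocrine markers Chga, Chgb, Scg2, Pcsk1, Insm1 and Neurod1, against 7.28% of all adult WT mTEClo cells, whereas in mTEChi it was 9.61 against 6.77%. Of the same 39 cells, 12 (30.8%) were in the enterocyte and liver class, against 5.04% of all adult WT mTEClo cells. Of the mTEClo cells with 5 or more Crp reads, 0.813% were in the neuroendocrine class, and 16.3% were in the tuft class against 37.3% of all cells. These mTEClo shares merge 3 unlike pools. Tuft-marker cells were 11.5, 93.2 and 59.1% of the pools. At 5 or more reads Crp was in 46.5, 14.9 and 16.7% of their cells and Resp18 in 2.76, 21.6 and 25.8%. The part of the pools in these class shares was not tested.

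Pairs of antigens in the same adult WT mTEChi cell were read at 5 or more reads. Apoc3 was found in 45.5% of the 44 Ttr cells and 19.03% of all cells, and Ttr in 16.9% of the Apoc3 cells. Resp18 was found in 62.6% of the 99 Fabp9 cells and 45.3% of all cells. Crp was found in 12.1% of the Fabp9 cells and 23.5% of all cells. All 5 antigens were detected together, at 1 or more reads, in 4 of 620 WT cells and in no Aire-KO cell, and none of the 5 in 7.74 and 22.2% of the cells. In adult WT mTEClo, 1 of the 39 Resp18 cells also held 5 or more Crp reads, where 34.5% of all cells did. At 5 or more reads the 3 pools differed in both genes. Resp18 was in 2.76, 21.6 and 25.8% of their cells and Crp in 46.5, 14.9 and 16.7%. The part of the pools in this was not tested.

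Neighbouring genes shared part of these patterns. Apoa4, 5060 bases from Apoc3, was found in 85.5% of the mTEChi cells with an Apoc3 read and in 61.8% of all, with r = 0.70 over cells, and Apoa1, 2467 bases away on the other side, in 61.04 and 41.3% (r = 0.47). Both encode apolipoproteins, and both were called higher in adult WT mTEChi than in mTEClo, by 3.66 (SE 0.96, adjusted p = 0.0424) and 5.67 (SE 1.35, adjusted p = 0.0323). Around Fabp9, Fabp4, Fabp5, Pmp2 and Fabp12 were each called higher too, by 2.53, 2.08, 5.22 and 3.12, with adjusted p-values of 0.00278, 0.0044, 0.0247 and 0.0236. Of all genes, 7.54% were called higher, and the calls of neighbours were not followed over the alternative settings. In Aire-KO mTEChi, Fabp4 stood at 185.6 CPM against 152.4 to 179.6 CPM in the WT pools and Fabp12 at 36.04 CPM against 8.89 to 19.1 CPM, where Fabp9 stood below its WT range. Of all genes, 16.5% lay above all WT pools there, and Fabp5 and Pmp2 lay within their WT ranges. Cadps, a regulator of vesicle release that lies 24374 bases from Fezf2 on the same strand, was called higher in mTEChi by 1.36 (SE 0.26, adjusted p = 0.0167) and went with Fezf2 over cells (r = 0.41). Apcs, the other pentraxin next to Crp, was almost absent, with a read in 1.34% of the cells with a Crp read.

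By likeness to Fezf2 over the 13 pools, measured as Pearson's r of log2(CPM + 1) among 8906 coding genes with a mean of at least 20 CPM, the closest were Crybg1 (0.98), Pdlim4 (0.97), Phf24 (0.97), Fas (0.97) and Psme1 (0.97), and for Chd4 they were Socs5 (0.96), Msh3, Klhdc2, Mcm9 and Gpatch8 (each 0.95). These values rest largely on the 3 cell types, which all of the points share. Within adult WT mTEChi, over 620 cells and 14679 genes, the closest to Fezf2 were Utf1 (0.52), Dleu7 (0.46), Kndc1 (0.45), Foxn1 (0.45), the transcription factor of thymic epithelium, and Vars (0.44). For Chd4 they were Fkbp4 (0.37), Llgl1, Cdk4, Hes6 and Nacc1, for Apoc3, after Apoa4 and Apoa1, Ces2e (0.40), Ms4a10 and Hsd17b6, for Ttr Clca4b (0.34), Tmem37, Ces2e, Cldn2 and Prap1, for Fabp9 Ahcyl2 (0.42), Fabp4, Ebi3, Gpa33 and Rhoc, for Resp18 Hpse2 (0.35), Ahcyl2, Cd52, Myh4 and Npc2, and for Crp Plce1 (0.33), Pcdh15, Sv2b, Lingo2 and Enpp4. No antigen was among the genes closest to Fezf2. Fezf1, the paralog of Fezf2, was found in 12.8 to 28.05% of the cells of the adult WT mTEChi pools and held 3.25 to 22.2 CPM there, and it held 2.48, 58.4 and 41.5 CPM in the 3 mTEClo pools, the reverse of the order of Fezf2 between the first and the other 2 (difference -1.51, SE 0.94, adjusted p = 0.278). Ltbr, the lymphotoxin beta receptor, which acts upstream of mTEC maturation, was lower in mTEChi than in mTEClo by a log2 difference of -0.85 (SE 0.20, adjusted p = 0.0294), under 2-fold.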

How the data were processed

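RamDA-seq libraries of single cells from 8 groups were analysed. Per the labels and the study's methods, the authors trimmed reads (fastp 0.20.0), mapped them to mm10 with STAR 2.7.3a, removed duplicates (Picard 2.21.1) and low-quality alignments (SAMtools 1.9) and deposited raw counts per gene (HTSeq 0.11.2, unstranded), keeping cells with over 200000 reads on over 8000 genes. Of these cells 168 were sequenced in 2 runs, on plates 3, 4 and 5, and the way the runs were joined is not given in the sources used here. Counts were summed per mouse pool. The 11 mTEC pools were fitted by group in edgeR 4.0.16 (TMM, filterByExpr, quasi-likelihood F test, 2-sided, Benjamini-Hochberg, 5 residual degrees of freedom), tested first on simulated data. A gene was called at an adjusted p below 0.05 with a 2-fold or larger difference. Standard errors are the log2 fold change over the root of F. Groups of 1 pool borrow the spread of the 2 replicated groups. The study's rank tests over cells were not used. Shares have 95% exact binomial intervals, which cover counting error only. Cells were also thinned to 200000 reads. Alternatives were DESeq2 1.42.0, its size factors, no filter, all 13 pools, plates as units, and limma 3.58.1 on log2(mean CPM of the cells + 1). Others were cells left out by markers, pools left out, and age and sex as a block. The named genes were the members, NuRD subunits, Aire-dependent antigens, Fezf1, Ltbr, Aire, neighbours and the 5 genes most like each member. The members, lists and tests were chosen with earlier results of these data known. Gene names and positions come from GENCODE M21. Spt1 was not matched.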

Additional observations from a re-analysis of the deposited data

Results flagged for a closer look

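Among the 4 adult WT mTEChi pools, 14 quantities (the level and the share of cells for each of the 7 genes) were tested for a pool far from the others by Dixon's criterion at the 95% level and 3 stood out, where chance gives about 1 in 20. The share of cells with a Fezf2 read was 99.55% in the first pool and 100% in the other 3, and the same held for Chd4 (99.55%). Both rest on 2 cells. With the other 3 pools tied at 100%, the gap over range is 1 however small the gap is. These 2 flags therefore cannot be set against a rate of 1 in 20. The share of cells with a Resp18 read was 85.37% in the third pool, of 6-week males, against 64.6 to 66.7% in the other 3 (gap over range 0.902). At 5 or more reads this pool held 53.7% against 43.9 to 50.0%.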

How the results depend on the processing

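Over 18 alternative settings, 10 fitted values of the members lost a call, 11 gained one and 73 changed sign, of which 0 had been larger than their SE, and the others kept their direction and their side of the threshold. In mTEChi against mTEClo the number of members called was 3, and it was 5 with thinned cells (also Crp and Chd4) and 1 to 3 with a pool left out, the 1 being Fabp9 without the second mTEClo pool. In neonate against adult mTEClo it was 0, and 1 with DESeq2, 3 with plates as units and 0 to 1 with a pool left out. The share of cells with Chd4 differed by 0.97 points between Fezf2-high and Fezf2-low mTEChi cells at 5 or more reads. With age and sex as a replicate block, which could not be fitted for the neonate comparisons, Fezf2 (2.43, adjusted p = 6.07e-05) and Fabp9 (5.62, adjusted p = 0.0185) stayed called and Apoc3 did not (4.01, adjusted p = 0.123), and no member was called in the Aire-KO comparisons. Of all genes, 11.7% were called in mTEChi against mTEClo, and 25.0% with DESeq2, 35.1% with plates as units, 7.54% with the block, 2.11% without cells with non-epithelial markers and 4.85% without tuft-marker cells, with 4.72% (without the second mTEClo pool) to 13.9% (without the 12-cell mTEChi pool) when 1 pool was left out. Fezf2-positive cells could not be set against cells without a read in adult WT mTEChi, where 2 of 620 had none. For the values that changed sign, log2 differences with none called, the cause was not tested. With the first adult WT mTEChi pool from plate 1 alone, chosen after seeing the data, the values were Apoc3 0.40 in Aire-KO mTEChi, Chd4 -0.12 and Apoc3 0.26 in neonate mTEChi. With all 13 pools the values were Chd4 0.0951, Apoc3 0.0169 and Crp 0.0179 in Aire-KO mTEChi, Chd4 0.0754 in the Aire-KO interaction. With thinned cells the values were Chd4 0.0508 and Crp 0.0335 in Aire-KO mTEChi, Fezf2 0.0463 in Aire-KO mTEClo, Fezf2 -0.24 and Chd4 0.0183 in the Aire-KO interaction, Ttr 0.32 in mTEChi against mTEClo, Apoc3 0.0579 in neonate mTEChi, Chd4 0.0064 in neonate mTEClo. With limma the values were Apoc3 0.0462 and Resp18 -0.0674 in Aire-KO mTEChi, Fezf2 0.0961 in Aire-KO mTEClo, Fezf2 -0.34 and Fabp9 -1.22 in the Aire-KO interaction, Ttr 0.17 in mTEChi against mTEClo, Apoc3 0.36 in neonate mTEChi, Chd4 0.0204 in neonate mTEClo. Without a filter the values were Chd4 0.064 in Aire-KO mTEChi, Chd4 0.0026 in the Aire-KO interaction, Ttr 0.011 in mTEChi against mTEClo. With plates as units the values were Ttr -0.47 and Resp18 -0.0652 in Aire-KO mTEChi, Ttr 1.74 in mTEChi against mTEClo, Chd4 -0.0662 and Ttr -0.0396 in neonate mTEChi. With the block the values were Apoc3 1.00 in Aire-KO mTEChi, Fezf2 -0.51 and Fabp9 -0.47 in the Aire-KO interaction, Resp18 -0.31 in mTEChi against mTEClo. With DESeq2 size factors the values were Ttr 0.0068 in mTEChi against mTEClo. Without cells with non-epithelial markers the values were Fezf2 0.26, Ttr -1.74 and Apoc3 0.21 in Aire-KO mTEChi, Chd4 -0.012 in Aire-KO mTEClo, Fabp9 -2.07 in the Aire-KO interaction, Ttr 0.43 and Resp18 -0.0024 in mTEChi against mTEClo, Resp18 0.36 and Crp 1.21 in neonate mTEChi, Chd4 0.0572 and Apoc3 -1.18 in neonate mTEClo. Without tuft-marker cells the values were Apoc3 0.0453 in Aire-KO mTEChi, Apoc3 0.0178 in neonate mTEChi, Chd4 0.27 and Ttr -1.21 in neonate mTEClo. Over the fits that left out 1 pool, the sign changed for Fezf2 -0.19 to 0.13, Chd4 -0.19 to 0.18, Apoc3 -0.40 to 0.46 and Crp -0.26 to 0.21 in Aire-KO mTEChi, Fezf2 -0.45 to 0.17 in Aire-KO mTEClo, Fezf2 -0.35 to 0.34, Chd4 -0.27 to 0.12 and Fabp9 -0.67 to 0.62 in the Aire-KO interaction, Ttr -1.06 to 1.86 and Resp18 -0.13 to 0.99 in mTEChi against mTEClo, Chd4 -0.0617 to 0.18, Apoc3 -0.55 to 0.29 and Crp -0.18 to 0.19 in neonate mTEChi, Chd4 -0.078 to 0.0069 and Ttr -0.17 to 2.32 in neonate mTEClo. Each Aire-KO and neonate group rests on 1 pool, and levels of Ttr, Apoc3 and Fabp9 rest on few cells.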
